A study of Mus musculus with 12 samples.

Results

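Stromal cells of mouse colonic tumours were compared with stromal cells of the growing colon at postnatal day 14 (P14). The comparison used 8 of the 12 RNA-seq libraries of the series, chosen by their tissue label alone: 4 from tumours raised with azoxymethane and dextran sodium sulfate (AOM/DSS) and 4 from developing colon. The remaining 4 libraries, from normal adult colon at 8 weeks, entered the fit of the spread and are given beside some results for orientation, with no test. All mice were C57BL/6J. The P14 mice were 2 weeks old, and the tumour-bearing mice were 12, 13, 14 and 14 weeks old for replicates 1 to 4. AOM is a carcinogen, and DSS in the drinking water injures the colonic lining. In this comparison the treatment, the tumour and 10 or more weeks of age differ together and cannot be told apart. In all 3 groups the colon was digested with collagenase IV and dispase, and cells negative for DAPI, EPCAM, CD31, CD45 and TER119 were sorted, so that dead cells, epithelium, endothelium, leukocytes and red-lineage cells were gated out and everything else was kept. The labels name 4 separate mice per group, and the design states 2 males and 2 females in each. The comparisons named in the series' design are those with normal adult colon, so tumour against P14 is a contrast of the same counts that it does not name.

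The stroma of the gut is a mixture of fibroblasts, smooth muscle cells, pericytes, interstitial cells of Cajal and the glia and neurons of the enteric nervous system. Its fibroblasts secrete the fibrillar collagens and elastic fibres that carry the wall, and they supply the epithelium with WNT ligands, R-spondins and BMP antagonists, while the epithelium sends Hedgehog ligands back to them. In the weeks after birth the wall grows and the matrix is laid down. Around tumours, fibroblasts are known for matrix remodelling, for growth factor supply and for the release of cytokines and chemokines. Because these are bulk RNA measurements of a sorted mixture, fewer cells of a type and less RNA per cell cannot be told apart in any of the results.

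Total counts were 29499836 to 38799033 in the P14 libraries and 15449444 to 28471598 in the tumour libraries. The smallest total was that of tumour replicate 4, in which 9.14% of the listed genes were at 0, against at most 1.40% elsewhere, and mitochondrial transcripts took 5.23% of the counts of tumour replicate 1 against at most 0.971% elsewhere. Levels of the X-inactivation transcript Xist and of Y-linked genes placed all 4 tumour libraries in one class with P14 replicates 1 and 4, and P14 replicates 2 and 3 in the other, which goes against the 2 males and 2 females stated for the tumour group. Counts against P14 replicates 1 and 4 alone are therefore given with the other limits. Transcripts of cells that the gate was set to remove were present. Epcam, the gate's epithelial antigen, was at 39.0 to 291 CPM (counts scaled to a common library total) at P14 and 212 to 767 CPM in tumours. Pecam1 (CD31) was at 4.77 to 58.3 and 1.93 to 8.45 CPM and Ptprc (CD45) at 1.08 to 4.38 and 2.33 to 33.5 CPM. The summed level of the squamous epithelial markers was 105 to 221 CPM in P14 and 6214 to 16740.5 CPM in tumour libraries, and that of the glandular epithelial markers was 480.4 to 3172 and 1730.0 to 5806 CPM. Neutrophil markers summed to 3.41 to 6.44 and 42.3 to 851 CPM and endothelial markers to 118 to 315 and 29.3 to 75.4 CPM. Pan-fibroblast markers summed to 70677 to 92231 CPM at P14 and 10738 to 29493 CPM in tumours, and of 8 markers the collagens Col1a1, Col1a2 and Col3a1 were lower, Thy1 was higher and 4 did not pass. One of these 4, Pdgfra, the platelet-derived growth factor receptor that marks fibroblasts as a class, was at 968, 914, 961 and 826 CPM in P14 replicates 1 to 4 and 604, 1247, 504 and 1089 CPM in tumour replicates 1 to 4, values that, like those that follow, are in the order of the replicates. The groups overlapped, with a difference of -0.09 ± 0.26 on the log2 scale (tumour minus P14, ± SE, as throughout; adjusted p = 0.806).

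Of 18727 genes tested with edgeR, 6930 (37.0%) passed an adjusted p under 0.05 (Benjamini-Hochberg). In tumour libraries 3696 (19.7%) were higher and 3234 (17.3%) were lower than at P14, of which 2438 and 1783 differed by 2-fold or more. In 2778 genes (14.8%) every tumour library lay above every P14 library, and in 3249 (17.3%) every P14 library lay above every tumour library, together 32.2%. These shares are the background for the counts below. They are high, so the text gives each list's counts in both directions. A list count near these shares is not a trait of the list. The first principal component of the 8 libraries held 80.5% of the variance and separated the groups.

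Most interstitial collagen genes were lower in tumours. Of 16 interstitial collagen genes, 14 were lower in tumour libraries (17.3% of all tested genes were) and none was higher, with a median log2 difference of -1.26 against 0.05 over all tested genes. Their summed level was 85954 to 108263 CPM at P14, 15693 to 32378 CPM in tumours and 31694 to 40607 CPM in normal adult colon. Col3a1, which encodes the fibrillar collagen of distensible tissues (chr1:45311500-45349700, GRCm38), was at 67287, 63491, 49844 and 46384 CPM at P14 and 12217, 17309, 6008 and 11054 CPM in tumours. Every P14 library lay above every tumour library, with a log2 difference of -2.28 ± 0.30 (adjusted p = 0.000167). Col1a2, a chain of type I collagen, was at 14855, 13057, 13289 and 14206 CPM at P14 and 3499, 3479.7, 1935 and 2939.8 CPM in tumours, again without overlap (-2.22 ± 0.20, adjusted p = 2.00e-05). Its partner chain Col1a1 differed by -1.53 ± 0.34 and Col15a1, a collagen next to basement membranes, by -2.04 ± 0.35 (adjusted p = 0.00413 and 0.000946). The 2 members that did not pass were Col5a3 (0.05 ± 0.20, adjusted p = 0.879) and Col8a1 (-0.72 ± 0.41, adjusted p = 0.186). Col8a1 passed without tumour replicate 2 (-1.19, adjusted p = 0.0244).

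The enzymes that modify and cross-link collagen were lower with the chains. Of 20 tested, 18 were lower and 1 was higher (median -0.95), with 2 higher without tumour replicate 3. Lox, the copper enzyme that starts the covalent cross-links of collagen and elastin, was at 475, 438, 563 and 489.8 CPM at P14 and 98.9, 107, 54.3 and 83.0 CPM in tumours. The groups did not overlap and the difference was -2.52 ± 0.21 (adjusted p = 1.27e-05). Serpinh1, the collagen chaperone HSP47, differed by -1.57 ± 0.20 and the prolyl 3-hydroxylase P3h1 by -1.47 ± 0.15 (adjusted p = 0.000135 and 3.52e-05). The member that was higher was P4ha3, a prolyl 4-hydroxylase subunit, at 1.67 to 2.01 CPM in P14 and 1.86 to 8.84 CPM in tumour libraries (1.56 ± 0.37, adjusted p = 0.00599), and the ranges overlapped.

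**Figure D1:**
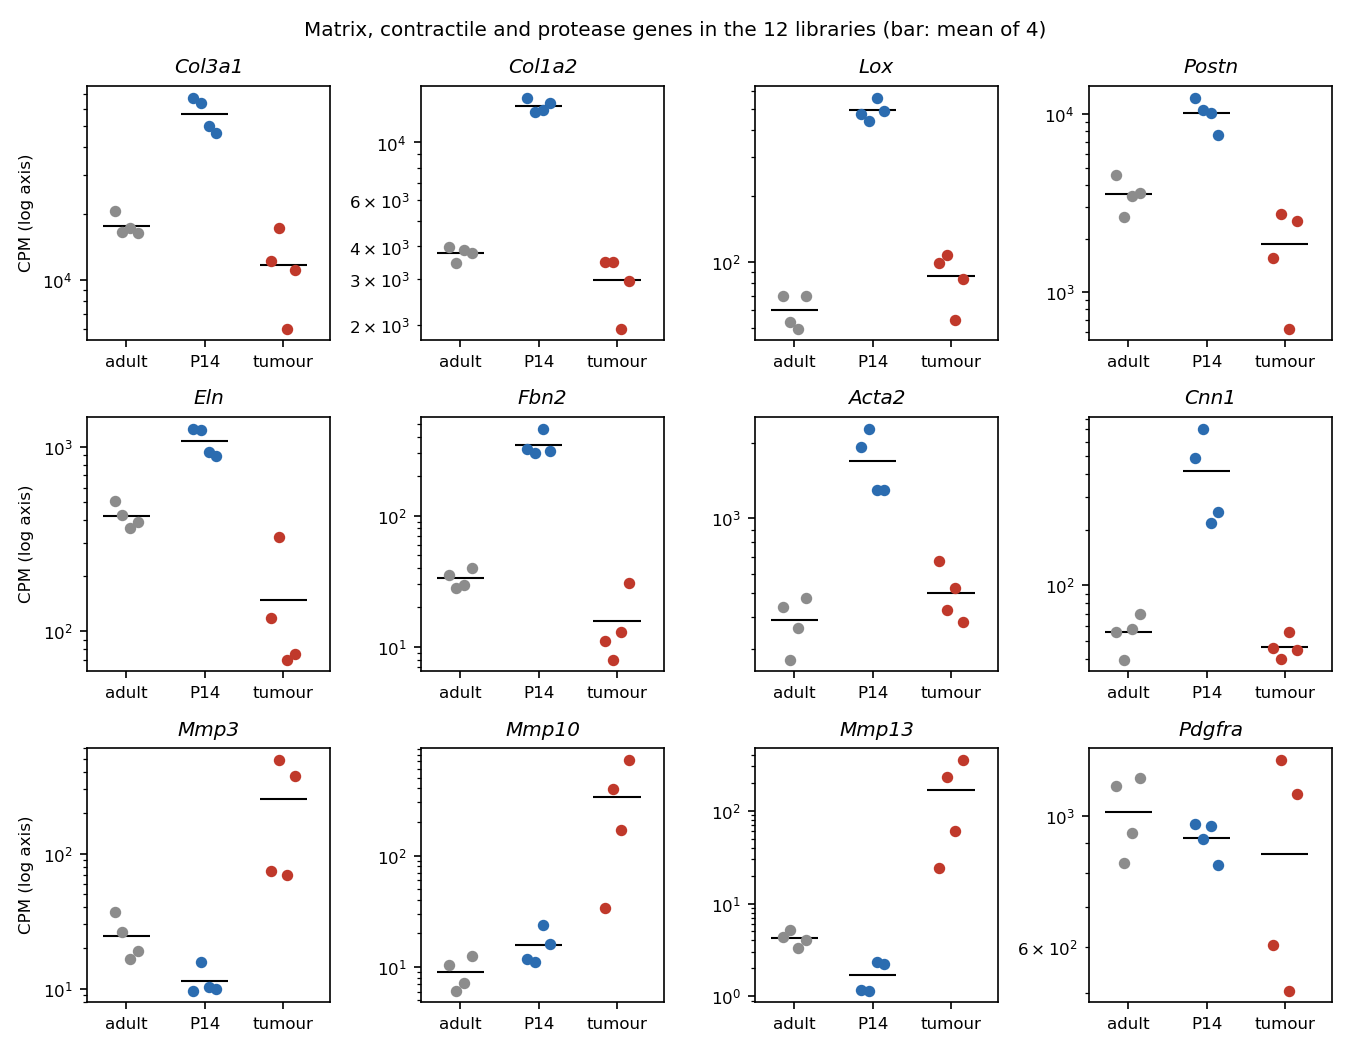
Level of 12 matrix, contractile, protease and receptor genes in each library on a logarithmic axis of CPM, with normal adult, P14 and tumour libraries as points and a bar at the mean of 4. Col3a1, Col1a2, Lox, Eln and Fbn2 lie higher in every P14 library than in any tumour library, and Mmp3 and Mmp13 lie higher in every tumour library.

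Elastic fibres have an elastin core with microfibrils around it. Of 16 elastic fibre and microfibril genes, 8 were lower and 2 were higher, Ltbp2 and Emilin2 (named after their values were seen; the number higher was 1 without P14 replicate 3 or 4 or without tumour replicate 1 or 2). Eln, elastin itself, was at 1253, 1231, 933 and 889.7 CPM at P14 and 119, 324, 69.9 and 75.4 CPM in tumours. All P14 libraries were above all tumour libraries, and the difference of -2.87 ± 0.43 (adjusted p = 0.000381) was -3.62 without tumour replicate 2, the tumour library with the most Eln. Fbn2, the fibrillin of growing tissues, was at 321, 301, 461 and 311 CPM at P14 and 11.2, 7.98, 13.0 and 30.7 CPM in tumours (-4.48 ± 0.38, adjusted p = 1.33e-05), among the 10 largest falls of genes at 5 CPM or more. The microfibril-associated Mfap4 differed by -3.03 ± 0.37 and Mfap5 by -2.88 ± 0.53 (adjusted p = 0.000109 and 0.00143), the latter by -3.83 without tumour replicate 2.

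In the basement membrane list, 10 of 16 were lower and 3 were higher (18.8%, against 19.7% of all tested genes). The higher members were Agrn, Lama5 and Col18a1 (named after their values were seen). Col4a5 and Col4a6, the paired collagen IV chains of smooth muscle basement membrane, were at 828 to 1408 and 207 to 414 CPM at P14 and at 64.3 to 263 and 32.7 to 107 CPM in tumours, differences of -2.86 ± 0.35 and -2.48 ± 0.35 (adjusted p = 0.000105 and 0.000276). The ranges of both chains did not overlap.

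Matricellular proteins, which sit in the matrix and act on cells, went both ways: 4 of 12 were higher (19.7% of all tested genes were) and 5 lower. Postn, periostin, was at 12403, 10493, 10130.2 and 7613 CPM at P14 and 1553, 2745, 621 and 2525 CPM in tumours. It was lower in every tumour library (-2.45 ± 0.39, adjusted p = 0.000538), as was the collagen-binding glycoprotein Sparc (-1.96 ± 0.18, adjusted p = 1.83e-05). Spp1, the secreted cytokine osteopontin, was at 0.302, 0.619, 0.138 and 0.474 CPM at P14 and 6.79, 14.3, 8.80 and 4.22 CPM in tumours. Its groups did not overlap and the difference was 4.46 ± 0.57 (adjusted p = 0.000134). Ccn5, a member of the CCN family without the C-terminal domain, was higher by 3.91 ± 0.68, tenascin N (Tnn) by 2.49 ± 0.47 and thrombospondin 4 (Thbs4) by 1.72 ± 0.32 (adjusted p = 0.000999, 0.00163 and 0.00140). Among 9 small leucine-rich proteoglycans, which coat collagen fibrils, 2 were lower (22.2%, against 17.3% of all tested genes). They were Aspn (-3.45 ± 0.29, adjusted p = 1.27e-05) and Ogn (-2.79 ± 0.26, adjusted p = 2.43e-05). Decorin (Dcn), at 2571 to 4038 CPM at P14 and 921 to 4984 CPM in tumours, did not pass (-0.29 ± 0.40, adjusted p = 0.594). Without tumour replicate 2 the number lower was 4.

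Several matrix-degrading enzymes rose. Of 16 tested metalloproteinases and tissue inhibitors (TIMPs), 7 were higher (43.8%, against 19.7% of all tested genes) and 3 lower (18.8%, against 17.3%). All 7 higher members had every tumour library above every P14 library. The lower members were Mmp14, Mmp16 and Mmp23 (named after their values were seen). Without tumour replicate 2 the number lower was 5. The 4 named rises by size are neighbours on chromosome 9: Mmp13, an interstitial collagenase, Mmp7, matrilysin, and the stromelysins Mmp3 and Mmp10. Their promoters are shown because each holds the AP-1 element TGAGTCA or its reverse complement TGACTCA, the binding site of FOS and JUN family dimers, within 250 bases before the start (RefSeq, GRCm38.p6, plus strand, 300 bases each, 5′ to 3′, element in capitals).
Mmp13: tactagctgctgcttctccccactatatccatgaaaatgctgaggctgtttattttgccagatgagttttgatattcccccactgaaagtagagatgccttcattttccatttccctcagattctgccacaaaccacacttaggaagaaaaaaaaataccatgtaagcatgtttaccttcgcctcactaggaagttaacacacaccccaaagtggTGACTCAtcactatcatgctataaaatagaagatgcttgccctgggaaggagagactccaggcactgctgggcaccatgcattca
Mmp7: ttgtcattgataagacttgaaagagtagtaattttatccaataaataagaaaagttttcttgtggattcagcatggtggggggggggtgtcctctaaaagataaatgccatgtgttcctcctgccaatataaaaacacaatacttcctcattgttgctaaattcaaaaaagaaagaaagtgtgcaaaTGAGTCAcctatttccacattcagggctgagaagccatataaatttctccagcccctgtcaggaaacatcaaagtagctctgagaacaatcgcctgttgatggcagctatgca
Mmp3: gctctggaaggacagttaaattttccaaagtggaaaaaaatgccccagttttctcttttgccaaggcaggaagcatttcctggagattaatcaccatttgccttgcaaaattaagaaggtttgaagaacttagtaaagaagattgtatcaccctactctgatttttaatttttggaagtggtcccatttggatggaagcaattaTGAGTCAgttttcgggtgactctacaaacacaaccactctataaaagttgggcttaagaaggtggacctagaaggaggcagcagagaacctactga
Mmp10: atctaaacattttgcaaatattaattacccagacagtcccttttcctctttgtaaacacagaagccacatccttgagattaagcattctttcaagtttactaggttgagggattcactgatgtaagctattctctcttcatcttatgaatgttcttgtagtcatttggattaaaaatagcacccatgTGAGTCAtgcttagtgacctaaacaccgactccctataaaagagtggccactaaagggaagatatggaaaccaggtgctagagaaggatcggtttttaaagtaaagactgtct
The windows are chr9:7272264-7272563, chr9:7691840-7692139, chr9:7445572-7445871 and chr9:7502092-7502391, and the first base of the element lies 35, 63, 46 and 63 bases before the start. Both strands were searched. The element was in 5 of 12 list members with a promoter entry (41.7%; the fifth is Mmp12, named here after its values were seen) and in 1607 of 27025 genes with one (5.95%). A gene was counted if any of its entries held the element. Mmp7 and Mmp12 each have a further entry without it, chr9:7692091-7692390 and chr9:7344147-7344446. The element was chosen with the results known, and a match describes the letters, not a bound site or a cause.

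Mmp13 was at 1.18, 1.15, 2.32 and 2.20 CPM at P14 and 24.0, 231, 61.2 and 356 CPM in tumours. The lowest tumour library was above the highest P14 library, and the difference was 6.62 ± 0.77 (adjusted p = 7.83e-05), or 5.94 without tumour replicate 4. Mmp3 was at 9.70, 15.8, 10.3 and 10.0 CPM at P14 and 74.6, 494, 69.0 and 374 CPM in tumours. It differed by 4.46 ± 0.63 (adjusted p = 0.000257), with tumour replicates 2 and 4 above replicates 1 and 3, as for Mmp13. Mmp10 was at 11.8, 11.1, 24.0 and 16.1 CPM at P14 and 33.5, 399, 170.4 and 727 CPM in tumours (4.40 ± 0.72, adjusted p = 0.000670; 3.67 without tumour replicate 4). Mmp7, which is also made by epithelial cells, was at 0.165, 0.0929, 0.0346 and 0.363 CPM at P14 and 12.1, 5.55, 47.2 and 2.29 CPM in tumours. Its highest library was tumour replicate 3, and its difference of 6.60 ± 1.09 (adjusted p = 0.000673) was 5.28 without that library and 7.31 without P14 replicate 4. The inhibitor Timp3 did not pass (0.34 ± 0.17, adjusted p = 0.131), nor did the gelatinase Mmp2 (-0.52 ± 0.23, adjusted p = 0.0989), which passed as lower without tumour replicate 2 (-0.76, adjusted p = 0.0166). The squamous and neutrophil marker sums were also higher in every tumour library, and their part in these differences was not tested.

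Genes used to mark tumour fibroblasts were divided. Of 14 cancer-associated fibroblast markers, 4 were higher in tumours and 7 were lower. Fap, fibroblast activation protein, was at 309.6, 271, 149 and 143 CPM at P14 and 37.5, 73.7, 11.0 and 19.5 CPM in tumours. It was lower in every tumour library (-2.62 ± 0.50, adjusted p = 0.00162; -3.27 without tumour replicate 2). Islr, the stromal protein meflin, was at 153, 146, 118 and 111 CPM at P14 and 49.7, 61.8, 27.2 and 19.5 CPM in tumours and Cthrc1, a secreted collagen-repeat protein, at 6.39 to 23.6 CPM at P14 and 0.269 to 2.04 CPM in tumours. Both were lower, with differences of -1.73 ± 0.30 and -3.71 ± 0.53 (adjusted p = 0.000901 and 0.000298). Higher members were Il11, an IL-6 family cytokine (3.36 ± 0.58, adjusted p = 0.000920), the surface glycoprotein Thy1 (1.98 ± 0.27, adjusted p = 0.000229) and Inhba, an activin subunit (1.62 ± 0.37, adjusted p = 0.00513). Podoplanin (Pdpn) did not pass (-0.03 ± 0.31, adjusted p = 0.944).

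Other receptors known from colorectal stroma were lower or did not pass. Lepr, the leptin receptor, was at 224, 252, 264 and 198 CPM at P14 and 43.8, 76.1, 21.9 and 26.4 CPM in tumours. All P14 libraries were above all tumour libraries (-2.48 ± 0.37, adjusted p = 0.000375), and normal adult libraries were at 220.2 to 473 CPM. Mcam, the adhesion molecule CD146, was at 308, 320.1, 268 and 238 CPM at P14 and 215, 169, 207 and 172 CPM in tumours. The difference was small and its ranges did not overlap (-0.57 ± 0.18, adjusted p = 0.0238). The Mcam call was lost without P14 replicate 1 (-0.53, adjusted p = 0.0621), without P14 replicate 2 (-0.51, adjusted p = 0.0688) and without tumour replicate 4 (-0.53, adjusted p = 0.0557). Pdgfrb, the receptor of pericytes and activated fibroblasts, did not pass (0.65 ± 0.25, adjusted p = 0.0570) but did without P14 replicate 3 (0.86, adjusted p = 0.0221) or without tumour replicate 2 (0.77, adjusted p = 0.0323).

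Nearly all smooth muscle genes were lower in tumours. Of 15 smooth muscle contractile genes, 14 were lower in tumour libraries and none was higher (median -1.72), and in 13 every P14 library lay above every tumour library. The list summed to 6793 to 13137 CPM at P14, 2399 to 3855 CPM in tumours and 1893 to 3168 CPM in normal adult colon. Cnn1, calponin of differentiated smooth muscle, was at 486, 706, 219 and 249 CPM at P14 and 45.9, 39.7, 55.7 and 44.5 CPM in tumours. It differed by -3.16 ± 0.35 (adjusted p = 5.45e-05), and enteric gamma-actin (Actg2) by -2.96 ± 0.39 (adjusted p = 0.000167). Acta2, the actin shared by smooth muscle and myofibroblasts, was at 1923, 2289.9, 1295 and 1299.9 CPM at P14 and 674, 428, 526 and 382 CPM in tumours (-1.76 ± 0.26, adjusted p = 0.000335), and the smooth muscle myosin Myh11 differed by -1.70 ± 0.31 (adjusted p = 0.00124). Cald1, caldesmon, which fibroblasts also make, did not pass (-0.22 ± 0.16, adjusted p = 0.299). Tacr2, the neurokinin receptor of gut muscle, was among the 10 largest falls, at 6.31 to 13.5 CPM at P14 and 0 to 1.17 CPM in tumours (-4.55 ± 0.74, adjusted p = 0.000608; -5.77 without tumour replicate 1).

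Markers of the enteric nervous system and of its pacemaker cells were mostly lower. Of 9 glial markers 6 were lower (66.7%, against 17.3% of all tested genes) and 1 higher (11.1%, against 19.7%). Of 11 neuronal markers 7 were lower (63.6%) and 2 higher (18.2%), and of 4 markers of interstitial cells of Cajal 3 were lower. Cdh19, a cadherin of glial and Schwann cells, was at 61.5, 63.2, 33.4 and 26.7 CPM at P14 and 2.43, 12.5, 9.16 and 8.58 CPM in tumours. No tumour library reached the P14 range (-2.50 ± 0.50, adjusted p = 0.00229), and the glial transcription factor Foxd3 differed by -3.69 ± 0.66 (adjusted p = 0.00110). Vip, the vasoactive peptide of inhibitory motor neurons, was at 17.4, 20.6, 6.84 and 9.07 CPM at P14 and 0.360, 0, 0.449 and 0 CPM in tumours, which made it the second largest fall of genes at 5 CPM or more (-5.98 ± 1.10, adjusted p = 0.00132; -6.70 without tumour replicate 3). The glial member that was higher was Erbb3, a receptor that epithelial cells also express (1.18 ± 0.40, adjusted p = 0.0332), and its call was lost without P14 replicate 1, 2 or 3 or tumour replicate 1 or 3, at 0.77 to 1.18. The summed level of the glial list overlapped between the groups, at 170.2 to 279 CPM at P14 and 94.8 to 315 CPM in tumours. The neuronal count moved with single libraries: 3 were lower without P14 replicate 2 and 4 without tumour replicate 1 or without tumour replicate 2, and 1 was higher without tumour replicate 1.

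Hedgehog signalling from epithelium to mesenchyme acts through the receptor Ptch1 and the Gli factors, and Foxf1 and Foxf2 are among its targets in gut mesenchyme. Of 13 genes of this pathway, 9 were lower in tumours, all 9 without overlap, and none was higher (median -1.23). Gli1, the activator that is itself induced by the pathway, was at 34.3, 39.6, 68.1 and 44.1 CPM at P14 and 11.8, 10.2, 14.9 and 12.3 CPM in tumours. It differed by -1.92 ± 0.26 (adjusted p = 0.000181), with normal adult libraries at 23.8 to 45.4 CPM. Hhip, a decoy receptor induced by Hedgehog, was at 136, 143, 297 and 139 CPM at P14 and 20.5, 30.1, 31.5 and 13.9 CPM in tumours (-2.89 ± 0.36, adjusted p = 0.000119). Ptch1 differed by -1.47 ± 0.25, Foxf1 by -1.84 ± 0.20 and Foxf2 by -1.74 ± 0.22 (adjusted p = 0.000925, 4.44e-05 and 0.000131).

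The imprinted growth genes, a group expressed from 1 parental copy and known to be turned down in many tissues after early life, were lower without exception: 15 of 15, in 14 of them with every P14 library above every tumour library (median -2.13). Igf2, insulin-like growth factor II, was at 25.4, 37.6, 11.9 and 7.28 CPM at P14 and 6.39, 5.62, 3.90 and 2.72 CPM in tumours. It differed by -2.13 ± 0.44 (adjusted p = 0.00273), and normal adult libraries were at 5.94 to 7.21 CPM. Mest, a hydrolase-like protein of growing mesoderm, was at 41.7, 40.5, 22.8 and 21.9 CPM at P14 and 1.03, 3.76, 3.86 and 1.93 CPM in tumours (-3.57 ± 0.40, adjusted p = 6.07e-05), with normal adult libraries at 4.17 to 6.18 CPM. Peg3 and Zim1, zinc finger protein genes of 1 imprinted cluster on chromosome 7, differed by -2.83 ± 0.23 and -5.46 ± 0.59 (adjusted p = 1.27e-05 and 4.61e-05). H19, the non-coding RNA beside Igf2, was the 1 member with overlapping groups, at 164, 216, 42.5 and 26.4 CPM at P14 and 27.2, 6.62, 8.93 and 47.8 CPM in tumours (-2.32 ± 0.75, adjusted p = 0.0281). The H19 call was lost without P14 replicate 1 or 2 (-2.08 and -1.79) or without tumour replicate 1, 2 or 3 (-2.43, -2.01 and -2.06), and the difference was -2.98 without tumour replicate 4.

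Other genes of embryonic tissue were less uniform. Of 12 oncofetal and embryonic regulators, 4 were lower (33.3%, against 17.3% of all tested genes) and 1 was higher (8.33%, against 19.7%). Mdk, the heparin-binding growth factor midkine, was at 184, 145, 114 and 106 CPM at P14 and 5.76, 15.6, 6.91 and 6.36 CPM in tumours, a difference of -3.98 ± 0.35 (adjusted p = 1.43e-05) with no overlap. The transcription factor Sox11 was also lower (-2.64 ± 0.44, adjusted p = 0.000752). The member that was higher was Hmga1, a chromatin architecture protein, at 3.52 to 11.6 CPM at P14 and 13.1 to 56.5 CPM in tumours (2.09 ± 0.46, adjusted p = 0.00381). A further member, Hmga2, passed as higher without tumour replicate 2 (1.67, adjusted p = 0.0474) and not with all libraries (1.34 ± 0.67, adjusted p = 0.132).

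Among WNT genes, ligands called lower and inhibitors called higher exceeded the shares of all tested genes. Among 11 WNT ligands and R-spondins, which maintain epithelial stem cells, 4 were lower (36.4%, against 17.3% of all tested genes). Only 1 was higher (9.09%, against 19.7%). Among 14 WNT inhibitors and feedback genes, 6 were higher (42.9%, against 19.7%) and 2 lower (14.3%, against 17.3%). Wnt2 was at 22.5, 26.7, 19.4 and 10.8 CPM at P14 and 2.92, 6.73, 3.46 and 3.07 CPM in tumours (-2.28 ± 0.34, adjusted p = 0.000381). Rspo2, an R-spondin that amplifies WNT signals, differed by -2.61 ± 0.62 (adjusted p = 0.00614; -3.25 without tumour replicate 2). Wif1, a secreted protein that binds WNT ligands, was at 1.02, 1.18, 1.21 and 0.698 CPM at P14 and 54.1, 20.4, 81.9 and 14.0 CPM in tumours. Its groups did not overlap and it was higher by 5.38 ± 0.55 (adjusted p = 3.66e-05). Notum, the enzyme that strips the lipid from WNT proteins, was at 1.21, 1.24, 0.864 and 0.586 CPM at P14 and 11.5, 5.73, 30.3 and 5.50 CPM in tumours and rose by 3.76 ± 0.58 (adjusted p = 0.000442), or by 2.95 without tumour replicate 3. Sfrp4, a secreted frizzled-related protein, rose by 2.87 ± 0.73 (adjusted p = 0.00890; 1.91 without tumour replicate 2). Without P14 replicate 3 the ligands called lower numbered 2, and the inhibitors called lower numbered 1 without P14 replicate 1 or 2 or without tumour replicate 3 or 4. The glandular epithelial marker sum was 480.4 to 3172 CPM at P14 and 1730.0 to 5806 CPM in tumours. Its part in the WNT differences was not tested.

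Members of the BMP family were called in both directions. The ligands called lower (16.7%) and the antagonists called higher (20%) were near the 17.3% and 19.7% of all tested genes. The targets and antagonists called lower made up 50% and 40%. Bmp4, a mesenchymal ligand that limits crypt growth, was the only one of 6 BMP ligands called (-1.45 ± 0.20, adjusted p = 0.000252), with 3 called lower without tumour replicate 4. Of 6 BMP target genes, 3 were lower, among them the helix-loop-helix inhibitors Id2 (-1.68 ± 0.20, adjusted p = 7.63e-05) and Id4 (-1.82 ± 0.19, adjusted p = 3.65e-05). Of 10 BMP antagonists, 4 were lower, with Nog, noggin, at -2.06 ± 0.41 and Fstl1 at -1.48 ± 0.32 (adjusted p = 0.00212 and 0.00352), and 2 were higher. These were Fst, follistatin (1.49 ± 0.38, adjusted p = 0.00909; 0.86 without tumour replicate 3), and Grem1. Grem1, the gremlin secreted near crypt bases, was at 196, 233, 115 and 121 CPM at P14 and 449, 409, 199.7 and 219 CPM in tumours. Its ranges overlapped, and the difference of 0.94 ± 0.33 (adjusted p = 0.0403) missed the threshold without normal adult replicate 2 or 3 and without P14 replicate 1, 3 or 4 or tumour replicate 1 or 2, at 0.73 to 1.03.

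Of 11 TGF-beta family genes, 4 were lower (36.4%, against 17.3% of all tested genes) and 2 higher (18.2%, against 19.7%). The ligand Tgfb3 was at 109, 119.8, 85.6 and 97.1 CPM at P14 and 44.1, 49.7, 30.1 and 17.4 CPM in tumours (-1.54 ± 0.27, adjusted p = 0.000940). The higher members were the activin subunits Inhba, at 6.32, 5.82, 12.7 and 9.96 CPM at P14 and 13.3, 17.9, 29.7 and 46.3 CPM in tumours (1.62 ± 0.37, adjusted p = 0.00513), and Inhbb (2.13 ± 0.57, adjusted p = 0.0112; 3.03 without P14 replicate 3). For Tgfb3 and Inhba the groups did not overlap.

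Epidermal growth factor (EGF) family genes were mostly higher. Of 11 ligands and receptors, 8 were higher and none was lower. Tgfa, a ligand of the EGF receptor, was at 1.43, 1.21, 1.14 and 4.10 CPM at P14 and 16.4, 7.23, 36.2 and 7.58 CPM in tumours. It rose by 3.09 ± 0.59 (adjusted p = 0.00161), by 2.39 without tumour replicate 3 and by 3.73 without P14 replicate 4. Areg, amphiregulin, was at 25.7, 25.3, 54.1 and 83.0 CPM at P14 and 133, 217, 256 and 215 CPM in tumours, and Hbegf, the heparin-binding ligand, at 26.8 to 69.4 CPM at P14 and 127 to 224 CPM in tumours. They differed by 2.13 ± 0.41 and 2.15 ± 0.35 (adjusted p = 0.00168 and 0.000658). The receptor Egfr differed by 0.84 ± 0.13 (adjusted p = 0.000375). Keratinocytes make several of these ligands. The squamous marker sum was higher in every tumour library, and its part in these differences was not tested.

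**Figure D2:**
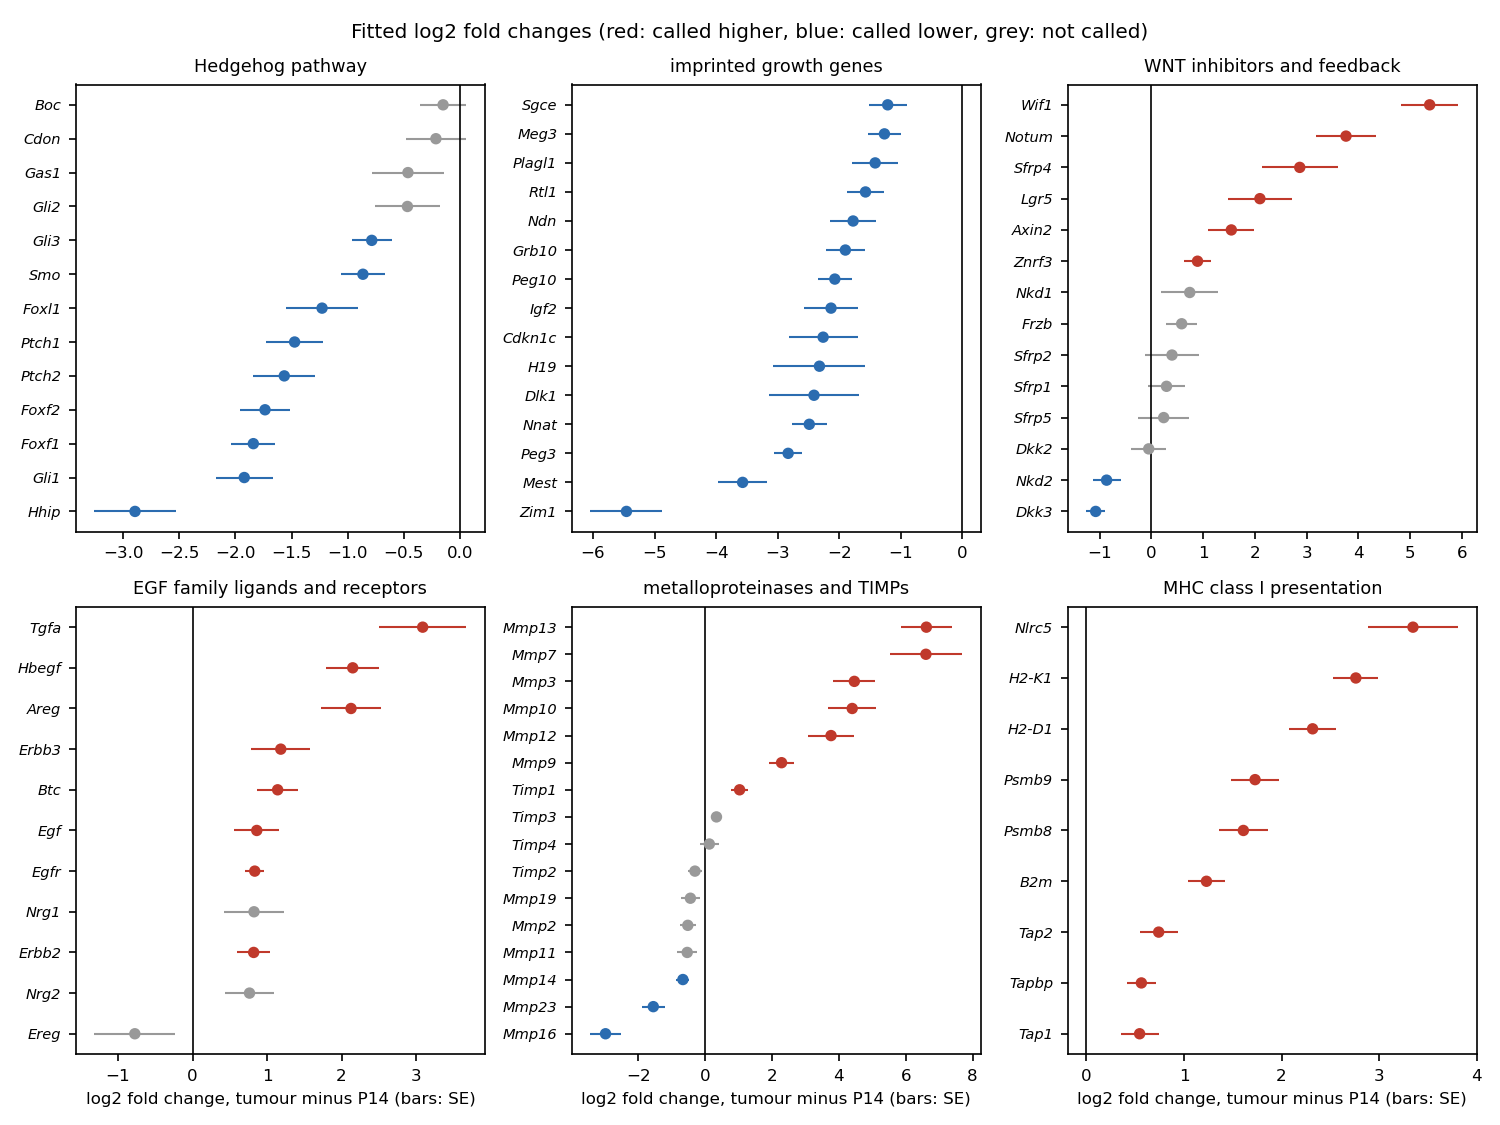
Log2 difference, tumour minus P14, with its SE, for every tested member of 6 gene lists: Hedgehog pathway, imprinted growth genes, WNT inhibitors and feedback, EGF family, metalloproteinases and TIMPs, and MHC class I presentation. Blue marks called lower, red called higher and grey not called. The 15 imprinted genes all lie below 0 and the 9 MHC class I genes all lie above it.

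Several inflammatory signals were higher in tumours. Of 13 tested inflammatory chemokines, 6 were higher and 1 was lower in tumours. The number higher was 3 without P14 replicate 1, without P14 replicate 2 or without tumour replicate 2. Without tumour replicate 2, 2 were lower. The promoters of 4 are shown because they hold a kappa-B element (GGG, any 2 bases, then TTTCC), a binding site of NF-kappa-B, on either strand (RefSeq, GRCm38.p6, plus strand, 300 bases, 5′ to 3′, element in capitals).
Cxcl3: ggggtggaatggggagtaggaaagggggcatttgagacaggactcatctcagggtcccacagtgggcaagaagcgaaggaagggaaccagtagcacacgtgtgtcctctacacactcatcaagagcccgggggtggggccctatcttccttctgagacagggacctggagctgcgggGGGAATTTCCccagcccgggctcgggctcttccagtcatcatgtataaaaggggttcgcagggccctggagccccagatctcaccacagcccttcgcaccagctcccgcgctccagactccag
Ccl20: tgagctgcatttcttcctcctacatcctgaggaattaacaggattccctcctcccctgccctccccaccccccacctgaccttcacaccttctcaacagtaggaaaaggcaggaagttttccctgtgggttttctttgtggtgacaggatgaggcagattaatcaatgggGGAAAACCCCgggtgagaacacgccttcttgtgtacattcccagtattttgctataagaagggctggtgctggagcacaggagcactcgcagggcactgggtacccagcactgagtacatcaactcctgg
Cxcl1: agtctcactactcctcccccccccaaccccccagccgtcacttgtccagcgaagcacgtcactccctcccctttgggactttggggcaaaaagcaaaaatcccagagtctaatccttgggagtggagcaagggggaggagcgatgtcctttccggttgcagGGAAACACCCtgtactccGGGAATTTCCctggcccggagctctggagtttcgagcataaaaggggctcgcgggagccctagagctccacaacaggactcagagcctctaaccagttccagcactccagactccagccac
Cxcl2: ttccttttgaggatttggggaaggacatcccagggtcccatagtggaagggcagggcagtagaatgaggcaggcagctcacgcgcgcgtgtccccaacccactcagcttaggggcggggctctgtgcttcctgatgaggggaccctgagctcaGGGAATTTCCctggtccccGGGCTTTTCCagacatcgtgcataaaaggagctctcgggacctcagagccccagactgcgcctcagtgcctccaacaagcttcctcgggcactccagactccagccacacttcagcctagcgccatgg
The windows are chr5:90785851-90786150, chr1:83116516-83116815, chr5:90890995-90891294 and chr5:90903649-90903948. The element begins 73 bases before the start of Cxcl3, 80 before that of Ccl20, 89 and 71 before that of Cxcl1 and 97 and 78 before that of Cxcl2. It was in 4 of 7 members with a promoter entry (57.1%) and in 512 of 27025 genes (1.89%), and it too was chosen with the results known and describes letters only. Of the other 2 elements searched, the CArG box was in 1 of 12 smooth muscle genes with an entry (8.33%, against 1.81% of all genes) and the sterol element (TCAC, any base, then CCAC) in 1 of 10 cholesterol genes (10%, against 1.44%). Of 11 feedback and target genes of NF-kappa-B, 2 were higher (18.2%, against 19.7% of all tested genes) and none was lower (median 0.15).

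Of the 4 chemokines with this element, 2 were called higher and 2 were not called. Cxcl3, a neutrophil attractant, was at 0, 0.0310, 0.173 and 0.195 CPM at P14 and 1.12, 5.76, 10.5 and 7.08 CPM in tumours (5.90 ± 0.92, adjusted p = 0.000473; 6.49 without P14 replicate 4). Ccl20, which attracts cells with the receptor CCR6, was at 0.852, 0.495, 0.415 and 2.07 CPM at P14 and 16.7, 62.9, 43.9 and 55.4 CPM in tumours (5.52 ± 0.60, adjusted p = 4.98e-05; 6.22 without P14 replicate 4). For both, every tumour library was above every P14 library. Cxcl1, also a neutrophil attractant, was at 344, 386, 526 and 524 CPM at P14 and 296, 1303, 686 and 752 CPM in tumours, with ranges that overlapped and a difference of 0.77 ± 0.36 (adjusted p = 0.107) that passed without tumour replicate 1 (1.04, adjusted p = 0.0147). Cxcl2 differed by 1.11 ± 0.53 (adjusted p = 0.117), and by 1.44 without tumour replicate 1 (adjusted p = 0.0224). Cxcl5, a further attractant of neutrophils, was higher by 4.27 ± 0.53 (adjusted p = 0.000120). The interferon-induced Cxcl10 was the member called lower, at 35.1 to 83.4 CPM at P14 and 13.5 to 28.0 CPM in tumours (-1.44 ± 0.31, adjusted p = 0.00361).

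Of 17 tested cytokine and receptor genes, 11 were higher and none was lower (median 2.06), with 7 higher without P14 replicate 2. Il1a, an interleukin-1 released by damaged epithelium and myeloid cells, was at 0.385, 0.279, 0.449 and 0.977 CPM at P14 and 5.89, 10.8, 18.3 and 13.9 CPM in tumours. It rose by 4.53 ± 0.44 (adjusted p = 2.71e-05) without overlap. Il1b, the myeloid interleukin-1, was at 1.29, 0.991, 3.94 and 10.6 CPM at P14 and 10.5, 235, 1.12 and 11.5 CPM in tumours. Its difference of 3.94 ± 1.28 (adjusted p = 0.0292) was 0.83 (adjusted p = 0.429) without tumour replicate 2, the library with the highest neutrophil sum, and 4.97 without P14 replicate 4. It also missed the threshold without P14 replicate 1, 2 or 3 (3.64, 3.62 and 3.91). Csf3, the growth factor of neutrophils, was at 0.330, 0.588, 1.14 and 0.809 CPM at P14 and 4.09, 19.3, 7.09 and 6.08 CPM in tumours (3.68 ± 0.55, adjusted p = 0.000367; 2.99 without tumour replicate 2). Il6 did not pass, at 207 to 298 CPM at P14 and 185 to 625 CPM in tumours (0.54 ± 0.29, adjusted p = 0.164), but did without tumour replicate 1 (0.76, adjusted p = 0.0359).

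Most antimicrobial and acute phase genes rose, and Ltf, S100a9 and Hp were in the 10 largest rises of genes at 5 CPM or more. Of 11 tested, 9 were higher, all without overlap (median 6.25). Saa3, a serum amyloid A made by fibroblasts and macrophages in inflammation, was at 1.62, 1.67, 2.35 and 2.07 CPM at P14 and 171, 656, 94.0 and 459 CPM in tumours (7.48 ± 0.62, adjusted p = 1.27e-05). Lcn2, a siderophore-binding lipocalin, was at 0.110, 0.0619, 0.311 and 0.335 CPM at P14 and 21.1, 16.8, 18.0 and 7.08 CPM in tumours (6.25 ± 0.65, adjusted p = 3.88e-05). Ltf, the iron-binding lactoferrin, was at 0.0550, 0.0310, 0 and 0.279 CPM at P14 and 30.2, 27.0, 1349.7 and 759.7 CPM in tumours (12.39 ± 1.62, adjusted p = 0.000160; 13.91 without P14 replicate 4 and 11.40 without tumour replicate 3). S100a9, a calprotectin subunit carried in bulk by neutrophils, was at 0.0824, 0, 0.0691 and 0.112 CPM at P14 and 44.9, 531, 15.7 and 18.3 CPM in tumours (11.06 ± 1.59, adjusted p = 0.000298; 8.51 without tumour replicate 2). The haptoglobin gene Hp rose by 9.06 ± 0.78 (adjusted p = 1.32e-05; 8.33 without tumour replicate 2). S100a8 and S100a9 are also in the neutrophil list, whose sum was 97.0, 851, 43.4 and 42.3 CPM in tumour replicates 1 to 4 and 3.41 to 6.44 CPM at P14. Of 8 neutrophil markers 5 were tested, of which 4 were higher and Mpo was lower. S100a8 and S100a9, at 277 and 531 CPM, made up most of the neutrophil sum in tumour replicate 2. The squamous marker sum was also higher in every tumour library. The part of neutrophils and of squamous cells in these rises was not tested.

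Several complement genes and most antigen presentation genes were higher. Of 11 complement genes, 5 were higher and 1 lower. Their sum was 936 to 1104 CPM at P14, 1881 to 9337 CPM in tumours and 2206 to 3252 CPM in normal adult colon. C3, the central component, was at 37.6, 40.0, 47.1 and 42.5 CPM at P14 and 2487, 4409.6, 693 and 588 CPM in tumours (5.61 ± 0.61, adjusted p = 5.30e-05; 4.89 without tumour replicate 2), and C4b rose by 4.24 ± 0.50 (adjusted p = 8.78e-05; 3.62 without tumour replicate 2). All 9 tested genes of MHC class I presentation were higher (median 1.61), 7 of them without overlap. These 9 summed to 601 to 823 CPM at P14, 2334 to 4049 CPM in tumours and 1407 to 1813 CPM in normal adult colon. H2-K1, a classical class I heavy chain, was at 112, 108, 162 and 185 CPM at P14 and 912, 1256, 819 and 860.4 CPM in tumours (2.76 ± 0.23, adjusted p = 1.27e-05). Nlrc5, the activator of class I genes, rose by 3.35 ± 0.46 (adjusted p = 0.000234; 4.00 without P14 replicate 3), and the light chain B2m by 1.23 ± 0.19 (adjusted p = 0.000390). Class I heavy chain genes are near-identical copies, so their reads may have been split or lost in counting. Of 7 class II genes, 6 were higher. Cd74, the invariant chain, was at 2.20, 1.02, 2.00 and 8.23 CPM at P14 and 26.1, 30.8, 40.7 and 5.00 CPM in tumours (2.93 ± 0.65, adjusted p = 0.00401; 3.87 without P14 replicate 4), and normal adult libraries were at 31.3 to 40.7 CPM.

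**Figure D3:**
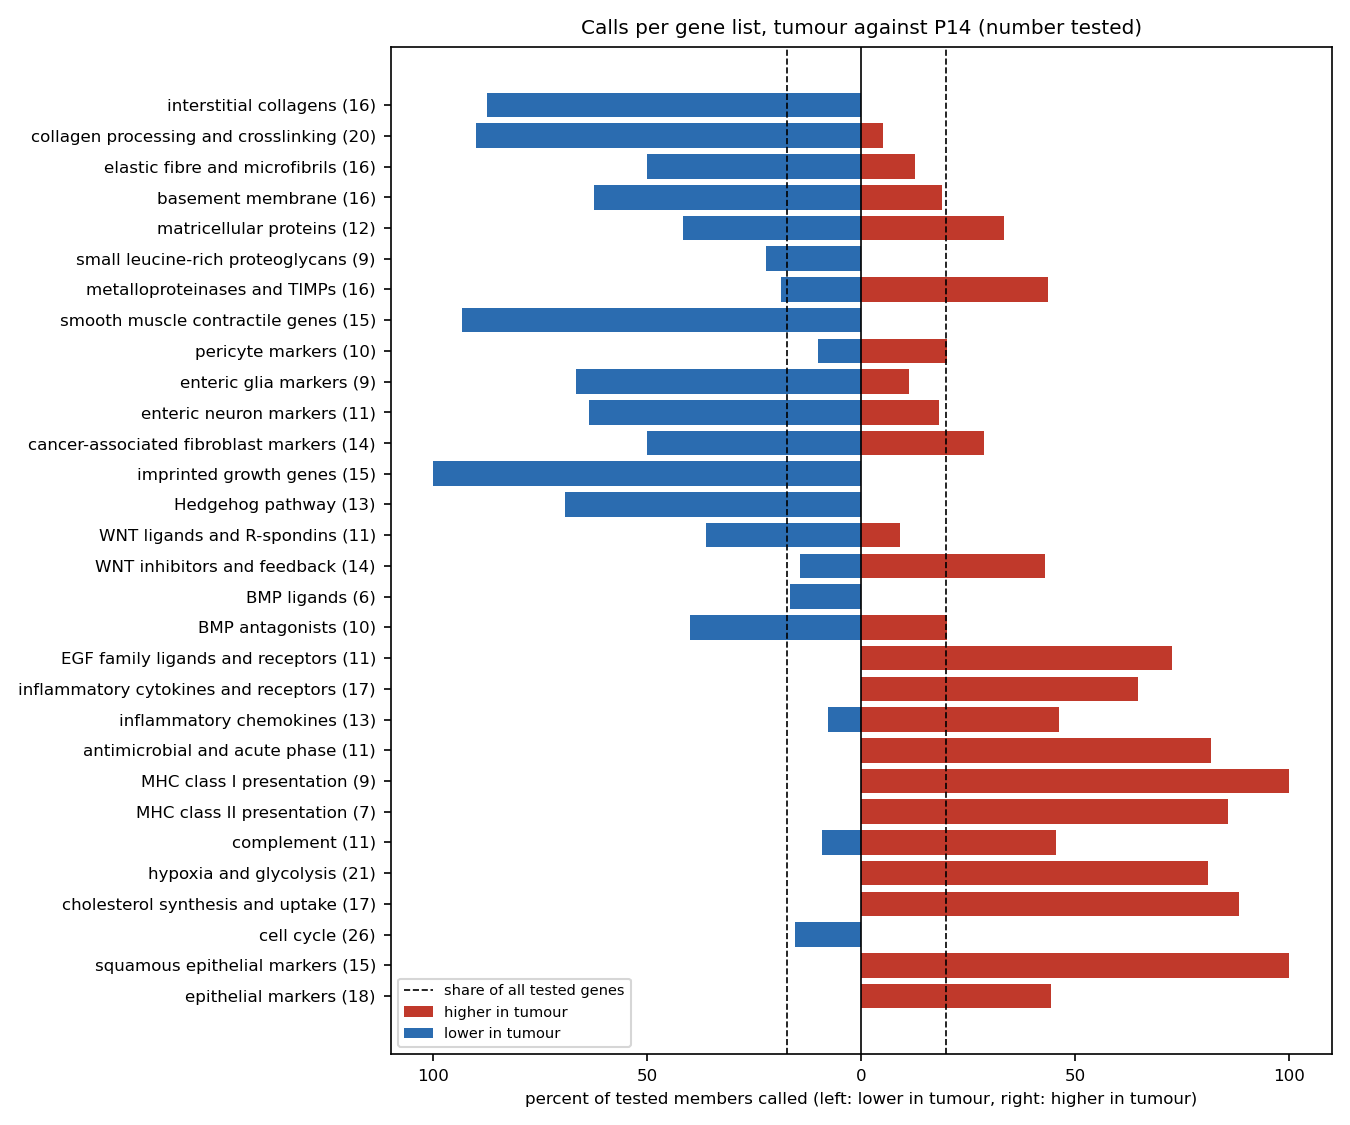
Share of the tested members called lower (blue, to the left) and higher (red, to the right) in tumour against P14 libraries for 30 gene lists. Dashed lines mark the shares over all tested genes, 17.3% lower and 19.7% higher. Imprinted genes, smooth muscle genes and collagen-processing genes extend furthest to the left, and squamous markers, MHC class I and cholesterol synthesis furthest to the right.

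Genes of sterol and glucose metabolism were mostly higher. Of 17 genes of cholesterol synthesis and uptake, 15 were higher, all without overlap (median 1.13). Fdft1, squalene synthase, was at 24.4, 20.4, 17.1 and 34.3 CPM at P14 and 82.3, 72.1, 90.3 and 57.5 CPM in tumours (1.65 ± 0.26, adjusted p = 0.000459). Msmo1, a methylsterol oxidase, rose by 1.45 ± 0.25 and Dhcr7, which makes cholesterol itself, by 1.45 ± 0.34 (adjusted p = 0.000841 and 0.00572). Normal adult libraries were at 59.9 to 115 CPM for Fdft1. Of 21 hypoxia and glycolysis genes, 17 were higher and none was lower (median 0.78). The list summed to 1958 to 2308 CPM at P14, 3892 to 4835.5 CPM in tumours and 2700 to 3739 CPM in normal adult colon. Normal adult libraries thus also lay above every P14 library. Slc2a1, the glucose transporter GLUT1, was at 27.8, 30.6, 55.2 and 61.6 CPM at P14 and 149, 119, 183 and 157 CPM in tumours (1.79 ± 0.28, adjusted p = 0.000486). The glycolytic enzymes Eno1, Pkm and Pgk1 rose by 1.59 ± 0.22, 1.49 ± 0.19 and 1.40 ± 0.21 (adjusted p = 0.000204, 0.000126 and 0.000343). Against P14 replicates 1 and 4 alone, 7 of the hypoxia and glycolysis genes were higher. The squamous marker sum was also higher in every tumour library, and its part in these differences was not tested.

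Few cell cycle genes were called. Of 26 cell cycle genes, 4 were lower and none was higher (15.4%, against 37.0% of all tested genes in either direction and 17.3% lower; median -0.12). Mki67, the marker of cycling cells, was at 144, 139.8, 132 and 148 CPM at P14 and 137, 130.4, 156 and 201 CPM in tumours, with overlapping ranges (0.15 ± 0.26, adjusted p = 0.680). Top2a, the topoisomerase of dividing cells, differed by -0.46 ± 0.37 (adjusted p = 0.343). Ccne1, cyclin E1, was among the 4 called (-1.36 ± 0.19, adjusted p = 0.000230), with Ccne2, Bub1 and Mcm4. The number lower was 1 without P14 replicate 1 or without tumour replicate 3 and 2 without tumour replicate 1.

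The other 7 of the 10 largest rises, Krt6b among them, were genes of stratified squamous epithelium, a tissue that lines the anal canal and not the colon. Of 15 tested markers, 15 were higher, 14 without overlap (median 5.89). Krt13, a keratin of the upper layers of internal stratified epithelium, was at 0, 0.0929, 0.380 and 0.279 CPM at P14 and 133, 71.2, 1016 and 912 CPM in tumours (11.48 ± 1.19, adjusted p = 3.73e-05). Krt14 and Krt5, the paired keratins of the basal layer, were at 33.1, 28.4, 60.8 and 56.1 CPM at P14 and 3452, 3750.3, 1936 and 8927 CPM in tumours for Krt14 and at 14.6 to 33.7 CPM at P14 and 777 to 1833 CPM in tumours for Krt5 (6.66 ± 0.95 and 5.89 ± 0.88, adjusted p = 0.000268 and 0.000365). Krt6a, a keratin of activated keratinocytes, rose by 10.37 ± 1.07 (adjusted p = 3.73e-05; 12.48 without P14 replicate 3). Tmprss11d, an airway and squamous trypsin-like protease, had 0 counts in all 4 P14 libraries and 7.33, 27.5, 119 and 35.9 CPM in tumour replicates 1 to 4. Against a floor of 3 counts over the P14 group, 0.0225 CPM, its tumour mean of 47.5 CPM was at least 2115-fold higher, and at least 1049-fold higher without tumour replicate 3, its highest library. Its neighbours Tmprss11a, Tmprss11b and Tmprss11g, from the same protease cluster, were also among the 10 largest rises, at 40.9 to 213, 26.4 to 229.6 and 7.29 to 104 CPM in tumours and at 0 to 0.173, 0 to 0.346 and 0 to 0.0275 CPM at P14. The squamous sum was high in all 4 tumour libraries, at 7469, 7045, 6214 and 16740.5 CPM, and normal adult libraries ran from 76.5 to 580.1 CPM.

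**Figure D4:**
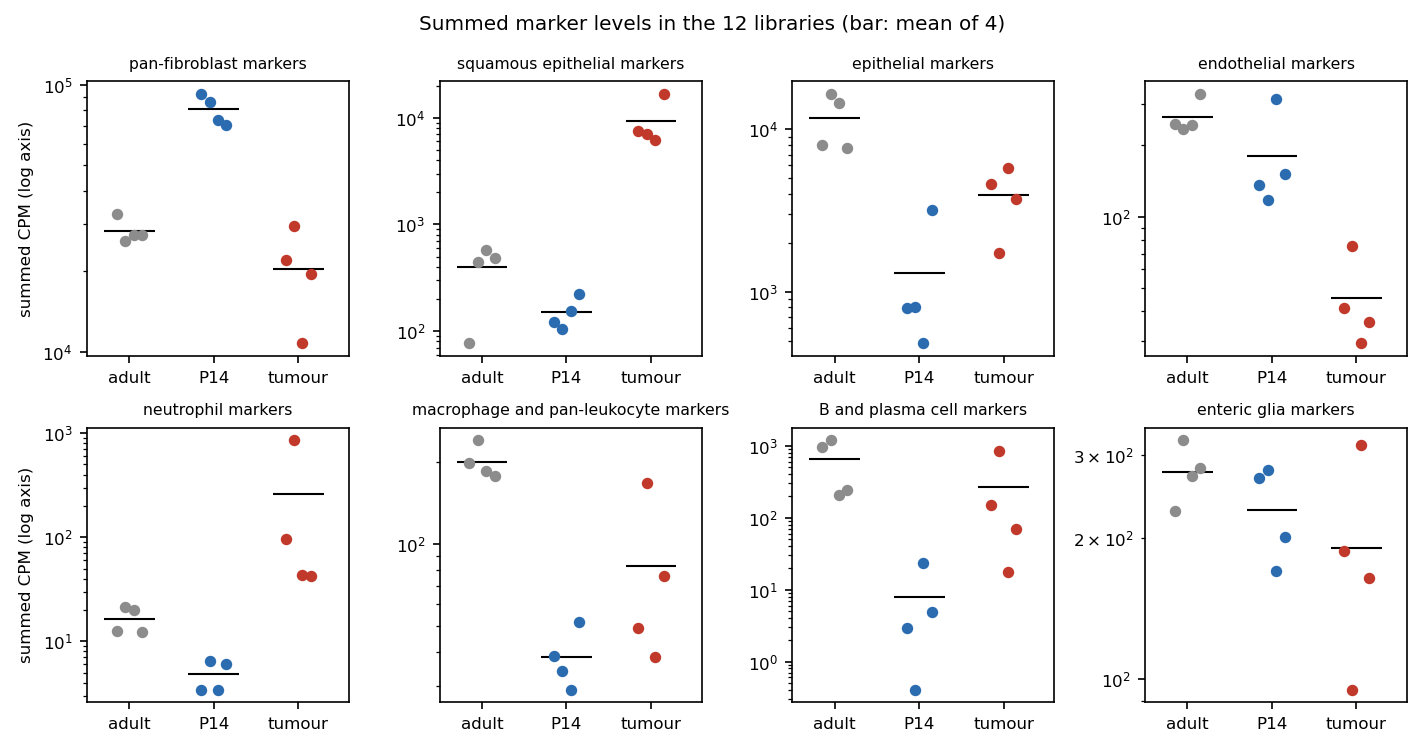
Summed level of 8 cell type marker lists in each library on a logarithmic axis of CPM, for normal adult, P14 and tumour libraries. Squamous markers lie at 105 to 221 CPM in P14 and 6214 to 16740.5 CPM in tumour libraries, and pan-fibroblast and endothelial sums lie lower in every tumour library than in any P14 library.

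The markers of glandular epithelium overlapped between the groups. Of 18, 8 were higher (44.4%, against 19.7% of all tested genes) and none was lower, but none was free of overlap. The number higher ran from 3 without P14 replicate 1, P14 replicate 2 or tumour replicate 3 to 15 without P14 replicate 4. The P14 sums were 799, 804, 480.4 and 3172 CPM, the tumour sums 4631, 1730.0, 5806 and 3720.2 CPM and the normal adult sums 7726 to 16537 CPM. P14 replicate 4 carried more of this RNA than the other P14 libraries. With P14 replicate 4 and tumour replicate 4 both left out, a choice made after seeing the data, 15 epithelial markers were higher and 1 lower, 1 endothelial marker was lower and no enteric neuron marker was higher. Of 8 endothelial markers, 4 were lower in tumours (50%, against 17.3% of all tested genes). The number lower was 7 without P14 replicate 2 and 1 without P14 replicate 3 or tumour replicate 3 or 4. It was 2 without tumour replicate 1 or any 1 normal adult library. Tek, the angiopoietin receptor of vessels, differed by -2.30 ± 0.37 (adjusted p = 0.000560). Of 13 macrophage and pan-leukocyte markers, 3 were higher (23.1%) and 2 lower (15.4%), near the 19.7% and 17.3% of all tested genes. The 13 markers summed to 29.0 to 51.3 CPM at P14 and 38.2 to 167 CPM in tumours. The number higher was 1 without any 1 of P14 replicates 1 to 3 or without tumour replicate 2. It was 5 without tumour replicate 3. B and plasma cell markers summed to 0.402 to 23.8 CPM at P14 and 17.4 to 840.4 CPM in tumours.

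Other large falls were in matrix, membrane and secreted proteins. Col26a1, a collagen gene, was at 15.8, 13.0, 15.8 and 17.0 CPM at P14 and 0.0450, 0.680, 0 and 0 CPM in tumours, the largest fall among genes at 5 CPM or more (-6.16 ± 0.78, adjusted p = 0.000134), and the difference was -9.50 without tumour replicate 2, which held nearly all tumour counts of the gene. Plppr5, a lipid phosphatase-related membrane protein, was at 16.4, 14.5, 14.0 and 9.94 CPM at P14 and 0.405, 0.215, 0.180 and 0 CPM in tumours (-5.98 ± 0.48, adjusted p = 1.27e-05). Cpz, a carboxypeptidase with a WNT-binding domain, was at 81.2, 71.6, 46.2 and 68.8 CPM at P14 and 4.09, 3.01, 1.75 and 3.43 CPM in tumours (-4.45 ± 0.39, adjusted p = 1.34e-05). No tumour library reached the P14 range for any of these genes. Col9a1, a collagen best known from cartilage, fell by 5.55 ± 0.75 (adjusted p = 0.000196; -6.14 without tumour replicate 3), and Col6a6, a beaded-filament collagen chain, differed by -4.44 ± 0.86 (adjusted p = 0.00182; -3.66 without P14 replicate 4 and -5.14 without tumour replicate 1). Ckm, the muscle creatine kinase, fell by 4.33 ± 0.85 (adjusted p = 0.00202; -5.07 without tumour replicate 1).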

How the data were processed

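RNA of sorted colonic stroma was sequenced as stranded polyA libraries, 1 per mouse, single-end, per the labels' protocols. The gene with the most counts was Rn7sk in tumour replicates 2, 3 and 4 (5.12%, 3.02% and 5.82% of counts) and in all normal adult libraries. It was mt-Rnr2 in tumour replicate 1 and Col3a1 in all P14 libraries. What this means for the library type was not tested. The authors deposited 1 table of whole-number read counts per gene for the 12 libraries. The build GRCm38, edgeR 3.28.0 and STAR 2.4.2a are listed, with no role, in the submitters' processing notes. How reads were counted, with which strand setting and annotation, is not given in the sources used here. Of 19049 gene IDs, 19012 were matched to GENCODE M21 for symbols and 37 were not. Of 164 genes named in the text, 22 overlap another gene on the same strand and 58 overlap one on the other strand, where counting could share or lose reads. No 2 libraries were duplicates by a chi-square test of their counts.

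Counts were analysed in R 4.3.3 with edgeR 4.0.16: filterByExpr at its defaults (minimum count 10, minimum total 15), which kept 18727 genes and left out 322, TMM factors, and the quasi-likelihood F test on all 12 libraries, which share 1 estimate of the spread. The contrast was tumour minus P14, with Benjamini-Hochberg adjusted p under 0.05 over all tested genes. The fit had a common biological coefficient of variation of 0.333, with 3.61 prior degrees of freedom. CPM values are scaled by TMM factors. In data simulated from these libraries (18643 genes), 67 genes were changed by 4-fold, 67 by 2-fold and 66 by 1.5-fold. The same test recovered 80.6%, 31.3% and 0% of them, with 1 false call among 76. Far fewer genes were changed there than passed here, which makes the adjusted threshold stricter, so these rates are not those of this contrast. Small differences can still be missed. Reads carried no molecular identifiers, so depth gives counting error only. Promoter sequences are from RefSeq, GRCm38.p6.

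The genes named are the 10 largest rises and falls among called genes of at least 5 CPM without overlap, the 6 largest of each at 200 CPM or more, 10 genes followed in the series, and the members of the described gene lists with the largest called change or named as not called. Exceptions are marked, and a few genes of this rule are not reported here. The members, lists and tests were chosen with earlier results of these data known. Alternatives changed the scaling, the filter, the tool (DESeq2 1.42.0, limma 3.58.1), the threshold and the libraries in the fit. An Xist-high class was set at over 100 CPM of Xist alone, and its libraries had at most 288 counts of 4 Y-linked genes, against at least 14857 in the others. Sample titles number the mice, and groups share some numbers. In 6 same-number pairs the deviations from the group means correlated over 0.1 in 3, and the correlations ran from -0.37 to 0.41. These values do not settle whether the numbers mark a pairing. The main fit took the numbers as names only.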

Additional observations from a re-analysis of the deposited data

Results flagged for a closer look

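In 40 of 346 groups of 4 libraries examined over the genes and sums named here, 1 library stood apart from the other 3 by Dixon's test at its 95% critical value. Chance gives about 1 in 20 such groups. No cause was tested.

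P14 replicate 1 had Mcm4 at 71.9 CPM and Tmprss11g at 0.0275 CPM above the rest of its group. P14 replicate 2 had Hoxd8 at 36.4 CPM and Mmp3 at 15.8 CPM above the rest of its group. P14 replicate 3 had C4b at 54.3 CPM, Fbn2 at 461 CPM, Foxf1 at 353 CPM, Foxf2 at 41.1 CPM, Hhip at 297 CPM, Krt6a at 1.11 CPM, Pdpn at 235 CPM, Rbp4 at 31.1 CPM and the endothelial markers sum at 315 CPM above and Pgk1 at 49.3 CPM below the rest of its group. P14 replicate 4 had Cd74 at 8.23 CPM, Dhcr7 at 6.45 CPM, Hbegf at 69.4 CPM, Stra6 at 0.837 CPM, Tgfa at 4.10 CPM and the epithelial markers sum at 3172 CPM above and Hp at 0.167 CPM and Id4 at 51.4 CPM below the rest of its group. Tumour replicate 1 had mitochondrial transcripts at 5.23% of counts above the rest of its group. Tumour replicate 2 had Col26a1 at 0.680 CPM, Il1b at 235 CPM, Mdk at 15.6 CPM, Mmp14 at 346 CPM, Ptprc at 33.5 CPM, S100a8 at 277 CPM, S100a9 at 531 CPM, Timp3 at 366 CPM, Wnt2 at 6.73 CPM and the neutrophil markers sum at 851 CPM above the rest of its group. Tumour replicate 3 had Fst at 124 CPM and Tmprss11g at 104 CPM above and Mcm4 at 39.9 CPM below the rest of its group. Tumour replicate 4 had Ccne1 at 6.08 CPM, Col4a6 at 107 CPM, the squamous epithelial markers sum at 16740.5 CPM and 9.14% of genes at 0 above the rest of its group.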

How the results depend on the processing

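Of the alternatives run, those that moved the number of called genes by over 1.5 times were an adjusted p under 0.01 (4044 called, 2116 higher and 1928 lower), a test against a 1.5-fold change with glmTreat (3258 called, 1826 higher and 1432 lower), tumours against P14 replicates 1 and 4 alone, which leaves 2 P14 libraries (3214 called, 1540 higher and 1674 lower), and the title number as a replicate block (3740 called, 1994 higher and 1746 lower). The block pairs samples by a shared title number, with correlations of -0.13 for P14 replicate 1 and tumour replicate 1 and 0.35 for P14 replicate 2 and tumour replicate 2. Leaving out 1 library at a time gave 5363 to 7601 called, 2790 to 3939 higher and 2573 to 3662 lower. The other settings stayed within 1.5 times, with 8038 called by DESeq2, 6748 by limma voom, 5202 from the 8 libraries alone and 4880 with an Xist-high term. Calls higher made up 47.9% to 56.1% over all settings, and 53.3% in the values reported. No called gene took the opposite direction with a call in any setting. Of 136 called genes named in the text, 108 were called in every alternative. Calls were lost in voom for Erbb3, Il1b, Ltf, Pecam1, Ptprc, S100a8 and S100a9, with library totals alone for Mcam, with counts thinned to the lowest total for Mcm4 and with upper-quartile factors for Ptprc. From the 8 libraries alone, without the normal adult libraries, calls were lost for Erbb3, Grem1, H19, Il1b, Mcm4, Pecam1 and Ptprc. With the Xist-high term they were lost for Bub1, Erbb3, H19, Il1b, Mcm4, Pecam1, Ptprc and Sfrp4, and against P14 replicates 1 and 4 alone for these and for Ccne2, Cd74, Dhcr7, Grem1, Hmga1, Hoxb13, Mcam, Mpo, P4ha3 and Ptges. The block lost 14, among them Col1a1, Col15a1, Fst, Has2 and Inhba. The cause of these losses was not tested, beyond the fewer libraries in some fits.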

Other observations

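Retinoid genes handle vitamin A and its active acid. In tumour libraries 6 of 11 were higher (54.5%, against 19.7% of all tested genes) and 2 lower (18.2%, against 17.3%). Stra6, the membrane receptor for the plasma carrier of retinol, was at 0.330, 0.372, 0.380 and 0.837 CPM at P14 and 43.6, 39.2, 82.3 and 24.1 CPM in tumours (6.60 ± 0.51, adjusted p = 1.18e-05). The intracellular carrier Crabp2 was higher by 3.78 ± 0.39 and Cyp26b1, which degrades retinoic acid, by 4.08 ± 0.52 (adjusted p = 3.82e-05 and 0.000127; 3.49 without tumour replicate 1 for Cyp26b1). For these 3 genes every tumour library lay above every P14 library. Aldh1a2, which makes retinoic acid in mesoderm, was at 62.5, 48.3, 76.6 and 55.2 CPM at P14 and 5.17, 9.95, 3.23 and 4.65 CPM in tumours. It differed by -3.39 ± 0.31 (adjusted p = 1.91e-05) without overlap, and the plasma carrier Rbp4 was also lower (-1.55 ± 0.24, adjusted p = 0.000418). The squamous marker sum was also higher in every tumour library, and its part in these differences was not tested.

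Of 26 tested Hox genes, which carry positional identity along the gut, 9 were lower (34.6%, against 17.3% of all tested genes). The 3 called higher (11.5%, against 19.7%) were Hoxb13, Hoxa7 and Hoxd13 (the last 2 named after their values were seen). Hoxb13, a gene of the most caudal body, was at 7.83, 6.38, 4.32 and 22.5 CPM at P14 and 51.4, 46.0, 40.5 and 25.3 CPM in tumours (1.99 ± 0.50, adjusted p = 0.00788; 2.72 without P14 replicate 4). The groups did not overlap. Hoxd8 differed by -1.72 ± 0.32 and Hoxd9 by -1.67 ± 0.30 (adjusted p = 0.00139 and 0.00127). Among 11 genes of hyaluronan turnover, 3 were higher (27.3%, against 19.7% of all tested genes) and 2 lower (18.2%, against 17.3%). Without tumour replicate 2, 4 genes of hyaluronan turnover were lower. Cemip, which starts its breakdown, was at 5.93, 11.2, 14.1 and 7.79 CPM at P14 and 14.8, 80.8, 45.3 and 269.9 CPM in tumours (3.39 ± 0.70, adjusted p = 0.00280; 2.27 without tumour replicate 4), and the synthases went apart, with Has3 higher, at 3.36 ± 0.37, and Has2 lower, at -1.05 ± 0.23 (adjusted p = 5.68e-05 and 0.00402). Of 13 prostaglandin genes, 5 were lower (38.5%, against 17.3% of all tested genes) and 2 higher (15.4%, against 19.7%). The number higher was 1 without P14 replicate 3. The receptor Ptger3 differed by -1.36 ± 0.28 and the synthase Ptges by 1.26 ± 0.30 (adjusted p = 0.00255 and 0.00620).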
